A study of Mus musculus with 8 samples.

Results

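Krüppel-like factor (Klf) family genes were examined across the cervical loop (CL) of the mouse incisor, the growing end from which the enamel-forming epithelium is renewed. The 8 genes were *Klf2*, *Klf3*, *Klf4*, *Klf5*, *Klf6*, *Klf9*, *Klf10* and *Klf13*, chosen by gene symbol from the 23358 genes of an RNA-seq table, and each of the 8 matched 1 row and passed the filter on low values (RPKM of at least 1 in at least 2 libraries). Mice were C57BL/6 and 4 weeks old, and RNA was taken from the CL head (CLH), which holds dental epithelial stem cells, and from the CL tail (CLT), which holds their progenies. *Med1* cKO mice carried floxed *Med1* alleles (MED1 fl/fl) with Cre recombinase driven by the *Krt14* promoter, which is active in keratin 14-expressing epithelium and not in the surrounding tissue, while Ctrl mice were littermates without Cre. The 4 groups (Ctrl CLH, cKO CLH, Ctrl CLT and cKO CLT) held 2 libraries each. The study describes the libraries of a group as biological duplicates from separate litters, with CL tissues pooled within each. No label says which litter a library came from. The p-values therefore measure the spread between 2 pooled samples per group and not between single mice.

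Klf proteins are zinc finger transcription factors that bind GC boxes and CACCC boxes in promoters and enhancers, and they share these sites with the related Sp factors. Some members mainly activate transcription (*Klf2*, *Klf4*, *Klf5* and *Klf6*), *Klf3* recruits CtBP corepressors, and *Klf9*, *Klf10* and *Klf13* carry a SIN3A-binding repression domain. In stratified epithelia *Klf4* is known for its role in late differentiation and barrier formation, and *Klf5* for its expression in proliferating basal cells. The genes lie on separate mouse chromosomes (mm10). The activators are *Klf2* on chromosome 8, 72319062 to 72321654, *Klf4* on chromosome 4, 55527137 to 55532475, *Klf5* on chromosome 14, 99298691 to 99313409 and *Klf6* on chromosome 13, 5861489 to 5870393. The repressors are *Klf3* on chromosome 5, 64803523 to 64830129, *Klf9* on chromosome 19, 23141226 to 23166911, *Klf10* on chromosome 15, 38294413 to 38300707 and *Klf13* on chromosome 7, 63886351 to 63938915. MED1, the product of the deleted gene, is a subunit of the Mediator complex, which connects enhancers to RNA polymerase at promoters.

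The promoters of the members were searched for these binding letters. RefSeq sequences of the GRCm38.p6 build were found for 6 of the 8 members (not for *Klf5* and *Klf10*), and the 250 bases before each gene start were searched on both strands for the GC box (GGGCGG), the CACCC box (CACCC) and the AP-1 site (TGANTCA). The promoters of *Klf3*, *Klf4* and *Klf13*, the members of the study's list of epidermal factors, are given here together with that of *Klf6*, whose RPKM overlapped between cKO and Ctrl in both regions. Capitals mark a GC box or a CACCC box on either strand, and where matches overlap or touch they form 1 run of capitals.
Klf3, chr5:64803271-64803520, + strand: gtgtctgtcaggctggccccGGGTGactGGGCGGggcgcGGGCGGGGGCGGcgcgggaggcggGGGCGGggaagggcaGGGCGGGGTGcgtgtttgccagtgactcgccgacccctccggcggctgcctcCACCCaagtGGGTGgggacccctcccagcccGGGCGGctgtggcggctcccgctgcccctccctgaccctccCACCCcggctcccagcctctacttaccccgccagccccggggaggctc
Klf4, chr4:55532476-55532725, - strand: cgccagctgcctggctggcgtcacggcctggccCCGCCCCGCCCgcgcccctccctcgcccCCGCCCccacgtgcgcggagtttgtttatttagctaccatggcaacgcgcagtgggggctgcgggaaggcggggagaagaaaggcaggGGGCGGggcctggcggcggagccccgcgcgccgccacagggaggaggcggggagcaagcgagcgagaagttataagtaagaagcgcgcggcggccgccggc
Klf13, chr7:63938916-63939165, - strand: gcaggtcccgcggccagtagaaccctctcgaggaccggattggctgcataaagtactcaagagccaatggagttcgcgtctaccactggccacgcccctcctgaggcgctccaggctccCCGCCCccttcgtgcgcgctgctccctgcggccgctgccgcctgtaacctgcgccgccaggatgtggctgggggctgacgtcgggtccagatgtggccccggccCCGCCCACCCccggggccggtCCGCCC
Klf6, chr13:5861239-5861488, + strand: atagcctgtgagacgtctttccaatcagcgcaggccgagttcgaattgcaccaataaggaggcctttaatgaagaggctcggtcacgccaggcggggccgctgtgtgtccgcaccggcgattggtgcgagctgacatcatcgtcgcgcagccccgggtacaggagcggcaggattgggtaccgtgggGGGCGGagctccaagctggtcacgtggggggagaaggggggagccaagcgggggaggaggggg
*Klf3* held 6 GC boxes and 5 CACCC boxes in this window. At least as many GC boxes were found in 0.886% of 32851 mouse promoters, and at least as many CACCC boxes in 0.667%. *Klf4* held 4 GC boxes and 0 CACCC boxes, *Klf13* held 3 and 1, and *Klf6* held 1 and 0. Of all promoters, 32.7% held a GC box and 52.0% a CACCC box in the same window. *Klf2* held 2 GC boxes and 1 CACCC box, and *Klf9* held 0 and 1. At least as many GC boxes were found in 4.09% of all promoters for *Klf4*, 8.47% for *Klf13* and 16.7% for *Klf2*. The *Klf3* window was 78.4% G and C, against 59.6% (*Klf9*) to 74% (*Klf4*) in the others. The shares were not matched for base content. An AP-1 site was found in *Klf9* alone among the 6, against 6.75% of all promoters. A match is a description of the letters and says nothing about binding in these tissues.

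Libraries held 22330512 to 28651106 reads on genes, and each value of a member rested on 70 (*Klf2* in Ctrl CLT 2) to 5030 (*Klf4* in cKO CLT 1) reads. Values are RPKM, read counts scaled to gene length and to the library's total, so levels can be compared between genes. The 2 Ctrl CLT libraries stood apart from each other, as 34.6% of tested genes differed by more than 1.5-fold between them against 0.763% to 1.12% in the other groups. *Med1* itself, measured as a check of the labels, had an RPKM of 7.71 and 9.12 (Ctrl CLH), 7.10 and 7.03 (cKO CLH), 4.83 and 8.71 (Ctrl CLT), and 9.15 and 8.96 (cKO CLT). It was lower in both libraries labelled cKO in CLH and higher in both in CLT, and these values cover the whole gene, not the floxed exons. Higher and lower in cKO therefore always refer to the libraries labelled cKO, compared with those labelled Ctrl. The samples are labelled dental epithelial cells, and their 7 basal epithelium genes summed to an RPKM of 623 to 1996. RNA of other cells was present, as 8 endothelial genes summed to 88.9 to 146 and 8 leukocyte genes to 111 to 207. In CLH, 7 mesenchyme genes summed to 1812 to 2058 and 6 odontoblast and bone genes to 2136 to 3109. Both lay above the 623 to 725 of basal epithelium there. Sums of different genes do not measure shares of cells. In such bulk tissue fewer cells of a type and less RNA per cell cannot be told apart.

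All 8 members were expressed in each library, and *Klf4* was the highest in 7 of the 8 libraries. *Klf4* RPKM was 30.3 and 30.3 (Ctrl CLH), 29.4 and 29.8 (cKO CLH), 31.5 and 22.2 (Ctrl CLT), and 58.9 and 54.2 (cKO CLT). The exception was Ctrl CLT 2, in which *Klf6* reached 29.4. In Ctrl CLH the order of mean RPKM was *Klf4*, *Klf6*, *Klf3*, *Klf13*, *Klf10*, *Klf9*, *Klf2* and *Klf5*, from 30.3 down to 3.21, and only the neighbours *Klf3* and *Klf13* and the neighbours *Klf9* and *Klf2* overlapped between libraries. In cKO CLH the same first 5 genes led without overlap, and *Klf2*, *Klf9* and *Klf5* (4.78, 4.52 and 4.03) overlapped with their neighbours. In Ctrl CLT the upper 5 genes (*Klf4*, *Klf6*, *Klf13*, *Klf3* and *Klf10*, mean RPKM 26.8 down to 14.0) each overlapped with the next. In cKO CLT, *Klf4* with a mean of 56.6 and *Klf3* with 28.3 stood above the rest without overlap, *Klf6* (23.6) overlapped with *Klf13* (23.1), *Klf5* (17.4) overlapped with *Klf10* (17.2), and *Klf9* (8.93) and *Klf2* (3.1) came last. *Klf3* ranked behind *Klf6* in CLH and before it in cKO CLT, and *Klf5*, the lowest in CLH, ranked above *Klf10* in cKO CLT. The summed RPKM of the 8 genes was 95.0 to 98.0 in Ctrl CLH, 95.9 to 100.6 in cKO CLH, 105.4 to 110.0 in Ctrl CLT, and 173.4 to 183.0 in cKO CLT.

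**Figure D1:**
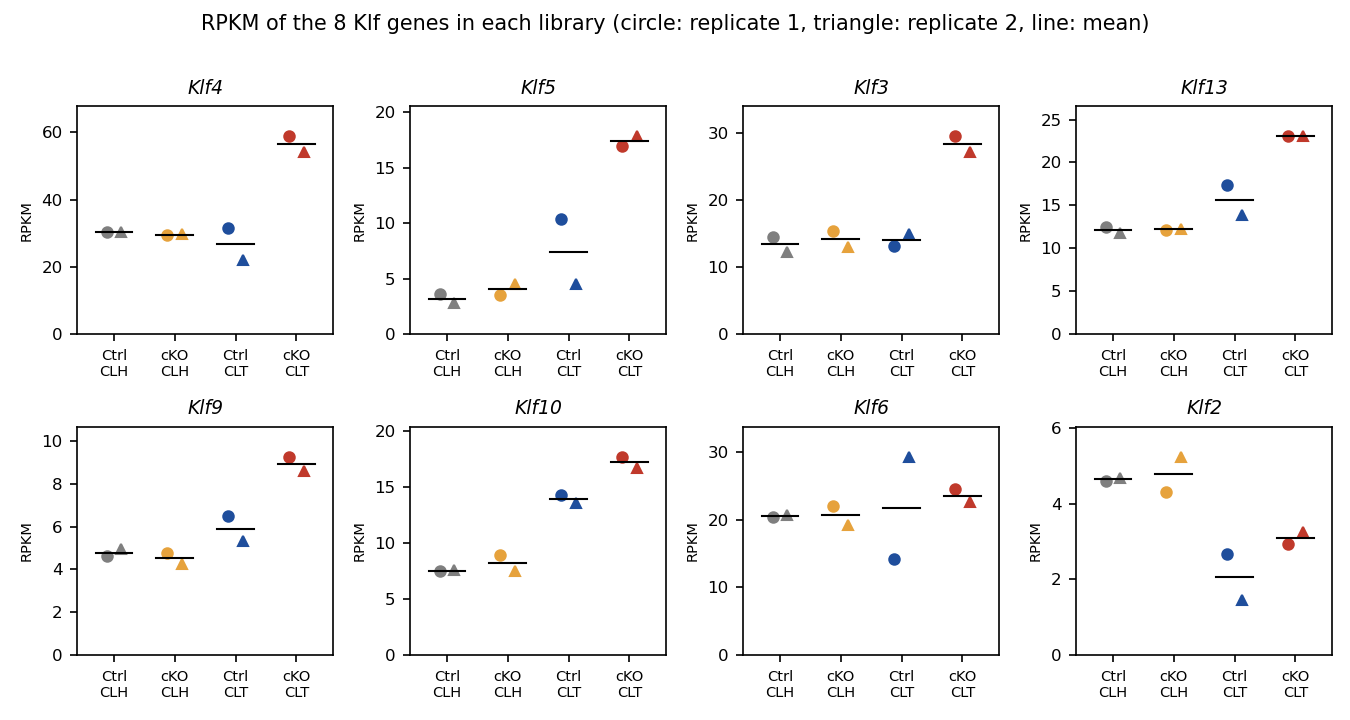
RPKM (y axis, linear, from 0) of each of the 8 Klf genes in the 8 libraries, grouped as Ctrl CLH, cKO CLH, Ctrl CLT and cKO CLT (x axis); circles are replicate 1, triangles replicate 2 and lines the mean of 2 libraries. In cKO CLT, 7 genes lay above both Ctrl CLT libraries, and *Klf6* lay between them.

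In CLT, both libraries labelled cKO exceeded both labelled Ctrl for 7 of the 8 members, and for none did both fall below. The mean RPKM ratio of cKO to Ctrl ran from 1.08 (*Klf6*) to 2.33 (*Klf5*). However, 0 of the 8 passed the adjusted threshold of 0.05 (limma on log2(RPKM + 1), Benjamini-Hochberg over 14148 genes), against 1.75% of all tested genes, and 5 had an unadjusted p under 0.05, as had 36.2% of all tested genes. Of all tested genes, 37.2% were higher in cKO CLT and 35.1% lower without overlap between the groups. The median log2 fold change (log2FC) was 0.53 over the members and -0.0086 over all tested genes. *Klf3*, *Klf4* and *Klf13* belong to a list of factors that the study chose on these same samples, so their direction is not independent evidence. Because of the added 1, this scale understates differences of genes with low RPKM.

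Among the activators, *Klf5* had the largest ratio of mean RPKM and *Klf4* the largest difference. *Klf4* RPKM was 31.5 and 22.2 (Ctrl CLT) against 58.9 and 54.2 (cKO CLT), and the ratio between single libraries ran from 1.72 to 2.66 (log2FC 1.07 ± 0.22 SE, limma adjusted p = 0.076). *Klf5* RPKM was 10.4 and 4.53 (Ctrl CLT) against 16.9 and 17.9 (cKO CLT), a log2FC of 1.21 ± 0.39 SE (limma adjusted p = 0.118). The Ctrl libraries of *Klf5* differed from each other 2.29-fold, more than the cKO libraries at 1.05-fold. *Klf2*, known for its role in endothelial cells exposed to blood flow, had 2.67 and 1.45 (Ctrl CLT) and 2.95 and 3.25 (cKO CLT), a log2FC of 0.45 ± 0.27 SE (limma adjusted p = 0.286). Beside *Klf2*, the endothelial list did not move one way: *Pecam1* RPKM was 18.5 and 22.3 (Ctrl CLT) and 25.4 and 24.2 (cKO CLT), while *Emcn* was 15.6 and 30.5 against 4.54 and 4.22, and 0 of its 8 genes passed the threshold. *Klf6*, a broadly expressed member, had 14.2 and 29.4 (Ctrl CLT), which enclosed the 24.6 and 22.6 of cKO CLT (log2FC 0.20 ± 0.38 SE, limma adjusted p = 0.728).

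Among the repressors, *Klf3* had the smallest adjusted p of all 8 members. Its RPKM was 13.1 and 15.0 (Ctrl CLT) and 29.5 and 27.1 (cKO CLT), a ratio of 1.81 to 2.25 between single libraries (log2FC 0.97 ± 0.15 SE, limma adjusted p = 0.064). Reads of *Klf3* cannot be told apart from those of an antisense transcript, *Gm20033*, over 404 bases, since no strand setting is stated for the counting. *Klf13*, which represses through SIN3A, had 17.3 and 13.9 (Ctrl CLT) and 23.10 and 23.03 (cKO CLT), a log2FC of 0.54 ± 0.17 SE (limma adjusted p = 0.114). *Klf9*, which is induced by glucocorticoid and thyroid hormones, had 6.48 and 5.34 (Ctrl CLT) and 9.28 and 8.58 (cKO CLT), a log2FC of 0.53 ± 0.18 SE (limma adjusted p = 0.125). The cKO values of both genes lay above both Ctrl values. *Klf10*, an early gene of TGF-beta signaling, had 14.3 and 13.6 (Ctrl CLT) and 17.7 and 16.7 (cKO CLT), a log2FC of 0.28 ± 0.14 SE (limma adjusted p = 0.224). Its groups did not overlap either, with the smallest ratio of those 7 genes.

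**Figure D2:**
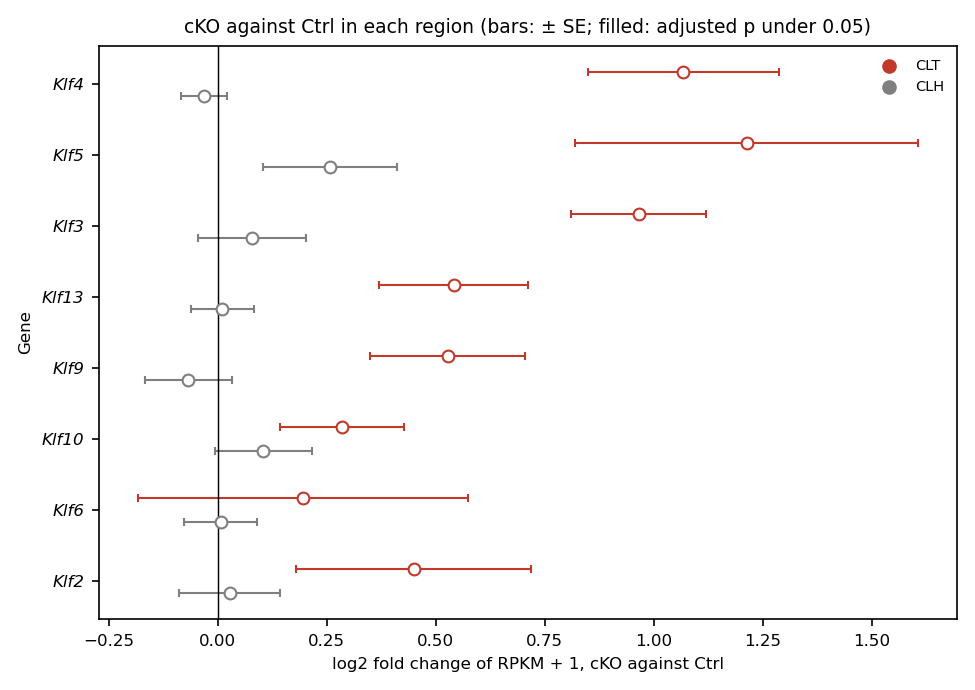
Log2 fold change of RPKM + 1 between cKO and Ctrl (x axis) for each Klf gene (y axis) in CLT (red) and CLH (gray); points are limma estimates, bars ± SE, and a filled point would mark an adjusted p under 0.05. All points are open, the CLT estimates lie between 0.20 and 1.21, and the CLH estimates lie between -0.07 and 0.26.

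The calls in CLT depended on which libraries set the spread. For 6 of the 8 members (*Klf2*, *Klf4*, *Klf5*, *Klf9*, *Klf10* and *Klf13*), Ctrl CLT 1 lay between Ctrl CLT 2 and both cKO CLT libraries, as it did for 54.1% of all tested genes. When the spread was taken from all 8 libraries in 1 fit, 5 members passed the threshold (*Klf3*, *Klf4*, *Klf5*, *Klf9* and *Klf13*, each higher), against 43.7% of all tested genes. Without Ctrl CLT 1 all 8 members passed, 7 higher and *Klf6* lower with a log2 fold change of -0.31, and 72.2% of all genes passed. Without Ctrl CLT 2, 6 members and 55.8% of genes passed, and without cKO CLT 1 or cKO CLT 2, 2 members passed in each case, with 11.7% and 11.2% of genes. In these fits the group left with 1 library is assumed to vary like the others. Fits without 1 library, here and below, took the spread from all remaining libraries and not only from those compared. In comparisons of 2 groups, their counts differ from the main fit in the spread used as well as in the library left out. With Ctrl CLT 1 or Ctrl CLT 2 left out, the log2FC was 1.31 or 0.82 for *Klf4*, 0.87 or 1.06 for *Klf3* and 1.73 or 0.69 for *Klf5*.

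In CLH, the stem cell region, all 8 log2FC between cKO and Ctrl lay between -0.07 and 0.26. Here 0 of the 8 passed the threshold (limma), against 0 of all 14148 genes, and 0 of the 8 had an unadjusted p under 0.05, as 7.26% of all tested genes did. None was higher in both cKO libraries, a pattern found in 19.9% of all tested genes, and 1 member was lower in both, against 18.8% of all tested genes. That member was *Klf4*, with an RPKM of 30.3 and 30.3 (Ctrl CLH) and 29.4 and 29.8 (cKO CLH), a log2FC of -0.03 ± 0.05 SE (limma adjusted p = 0.884). The largest estimate was that of *Klf5*, with 3.59 and 2.83 (Ctrl CLH) and 3.54 and 4.53 (cKO CLH), a log2FC of 0.26 ± 0.15 SE (limma adjusted p = 0.724). The other 6 had log2 fold changes from -0.07 (*Klf9*) to 0.10 (*Klf10*), and their groups overlapped.

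Whether the cKO effect differed between the regions was tested with an interaction term in a fit of all 8 libraries. It passed the threshold for *Klf3* and *Klf4*, or 2 of the 8 members, both more positive in CLT, against 17.6% of all tested genes. For *Klf4* the cKO effect was 1.10 greater in CLT than in CLH on the log2 scale (SE 0.23, limma adjusted p = 0.028), and for *Klf3* it was 0.89 greater (SE 0.19, limma adjusted p = 0.032). *Klf9* (0.60 ± 0.19 SE, limma adjusted p = 0.0764) and *Klf13* (0.53 ± 0.17 SE, limma adjusted p = 0.0782) lay just outside. *Klf5* had an estimate of 0.95 with an SE of 0.47 (adjusted p = 0.185, limma), and *Klf2*, *Klf6* and *Klf10* had 0.42, 0.19 and 0.18, with adjusted p-values from 0.341 to 0.769. With the replicate number as a block *Klf3* no longer passed (limma adjusted p = 0.0531) and *Klf4* did (limma adjusted p = 0.0425). Leaving out any 1 CLH library or any 1 cKO CLT library left 0 members past the threshold, while 6 passed without Ctrl CLT 1 (63.1% of all genes) and 5 without Ctrl CLT 2 (46.6% of all genes). Over these 8 fits the estimate ranged from 0.85 to 1.34 for *Klf4* and from 0.772 to 1.001 for *Klf3*. The calls over all tested genes also moved widely between these fits, so the lost calls are not particular to *Klf3* and *Klf4*.

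The step from CLH to CLT was compared within each genotype. In Ctrl, 0 of the 8 members passed the threshold (limma), against 0.00707% of all tested genes, and 2 had an unadjusted p under 0.05 (*Klf10* and *Klf2*), as had 13.1% of all tested genes. *Klf5*, *Klf9*, *Klf10* and *Klf13* were higher in both CLT libraries (15.2% of all tested genes) and *Klf2* was lower in both (36.8%). *Klf10* was 7.54 and 7.56 (Ctrl CLH) and 14.3 and 13.6 (Ctrl CLT), 1.80 to 1.90 times higher (log2FC 0.81 ± 0.14 SE, limma adjusted p = 0.309). *Klf2* was 4.61 and 4.69 (Ctrl CLH) and 2.67 and 1.45 (Ctrl CLT), a log2FC of -0.91 ± 0.27 SE (limma adjusted p = 0.346). These 2 genes differed in opposite directions. *Klf3* (log2 fold change 0.07), *Klf4* (-0.19) and *Klf6* (-0.0049) overlapped between the regions. The count of members past the threshold was 4 without Ctrl CLT 1 (29.1% of all genes), 6 without Ctrl CLT 2 (60.4% of all genes), and 1 when all 8 libraries were in 1 fit (5.92% of all genes).

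In the libraries labelled cKO, 7 of the 8 members passed the threshold between the regions, 6 higher in CLT and 1 lower, against 74.0% of all tested genes. Without overlap between the groups, 7 were higher (34.5% of all tested genes) and 1 was lower (52.3% of all tested genes). *Klf5* rose most, from 3.54 and 4.53 to 16.9 and 17.9 (log2FC 1.88 ± 0.12 SE). *Klf10* rose by 0.99, *Klf3* by 0.95, *Klf4* by 0.91, *Klf13* by 0.87 and *Klf9* by 0.85 on the log2 scale, each with an SE of 0.08 to 0.11. *Klf2* fell from 4.31 and 5.25 to 2.95 and 3.25 (log2FC -0.49 ± 0.12 SE, limma adjusted p = 0.0050), and its adjusted p was 0.0954 with all 8 libraries in 1 fit and 0.147 to 0.334 when 1 library was left out. *Klf6* had 22.1 and 19.3 (cKO CLH) and 24.6 and 22.6 (cKO CLT), a log2FC of 0.18 ± 0.10 SE (limma adjusted p = 0.123), and passed the threshold in 2 of 11 other settings. The median log2FC over all genes was -0.18 in this comparison and 0.02 under median-of-ratios scaling, and the calls over all genes split into 4084 higher and 6384 lower in the first case and 5270 higher and 4884 lower in the second. The region comparisons share the CLH and CLT libraries with the genotype comparisons, so their values are not separate evidence.

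**Figure D3:**
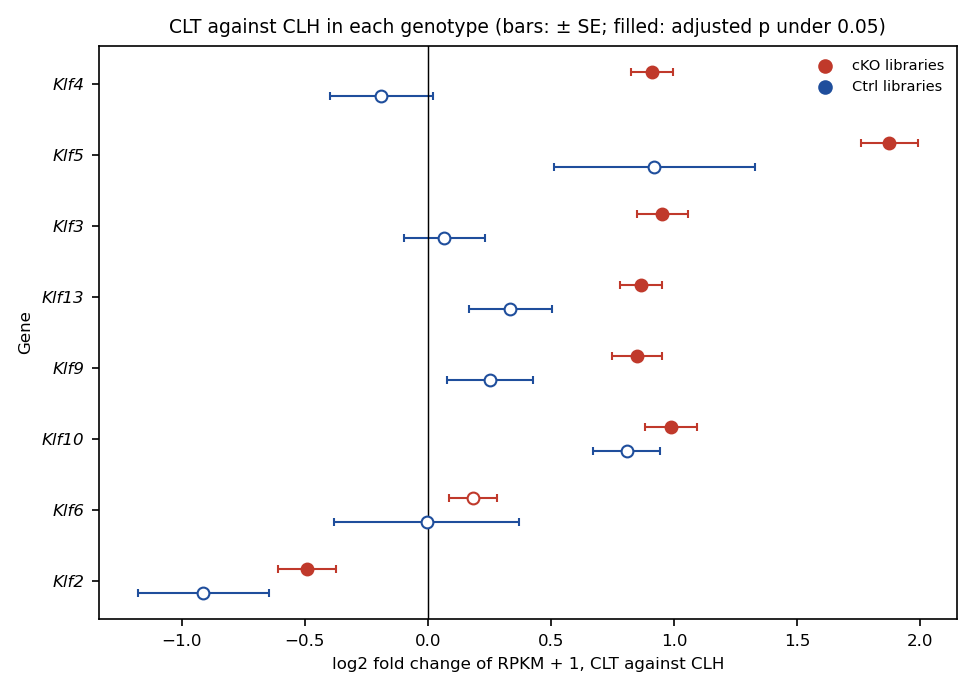
Log2 fold change of RPKM + 1 between CLT and CLH (x axis) for each Klf gene (y axis) within cKO (red) and Ctrl (blue) libraries; points are limma estimates, bars ± SE, and filled points have an adjusted p under 0.05. In cKO, 7 points are filled, with *Klf2* alone of these below 0, and in Ctrl all 8 are open.

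Of the other 9 Klf genes, 5 were tested and 0 passed the threshold in CLT between cKO and Ctrl. *Klf7* RPKM was 0.921 and 1.49 (Ctrl CLT) and 2.22 and 2.74 (cKO CLT), a log2 fold change of 0.67, and *Klf15* was 2.31 and 1.36 against 3.7 and 3.1 (0.65). *Klf16* was 5.70 and 4.92 against 6.67 and 7.19 (0.33). In the other direction, *Klf11*, the closest relative of *Klf10*, was 4.71 and 7.63 against 3.12 and 3.12 (-0.77), and *Klf8*, which like *Klf3* binds CtBP, was 0.859 and 2.42 against 0.608 and 0.444 (-0.73). Adjusted p-values of these 5 genes ran from 0.129 to 0.235. *Klf1*, *Klf12*, *Klf14* and *Klf17* were below the filter, and *Klf17* had at most 1 read in a library.

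Of the Sp factors, which bind the same GC boxes, *Sp6* had a higher RPKM than any Klf gene in each library. *Sp6*, known as epiprofin and required for enamel formation, had an RPKM of 238 and 241 (Ctrl CLH), 229 and 243 (cKO CLH), 120 and 153 (Ctrl CLT), and 64.5 and 63.2 (cKO CLT). Its cKO effect in CLT was -1.08 on the log2 scale (SE 0.18, limma adjusted p = 0.064), and it differed from that in CLH by -1.06 (SE 0.18, limma adjusted p = 0.0176). *Sp6* was thus lower in the same libraries in which *Klf4* and *Klf3* were higher. *Sp7*, known as osterix and found in odontoblasts and bone-forming cells, fell in CLT from 29.0 and 63.8 to 0.187 and 0.241, the latter resting on 12 and 15 reads (log2FC -5.18 ± 0.42 SE, limma adjusted p = 0.0365). Its interaction estimate was -5.27 (SE 0.46, limma adjusted p = 0.0031). *Sp7* was the only one of the 6 tested Sp factors that passed the threshold in CLT, and the others had log2 fold changes of -0.54 (*Sp4*), -0.29 (*Sp3*), 0.19 (*Sp1*) and 0.39 (*Sp2*). *Sp5*, *Sp8* and *Sp9* were below the filter.

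**Figure D4:**
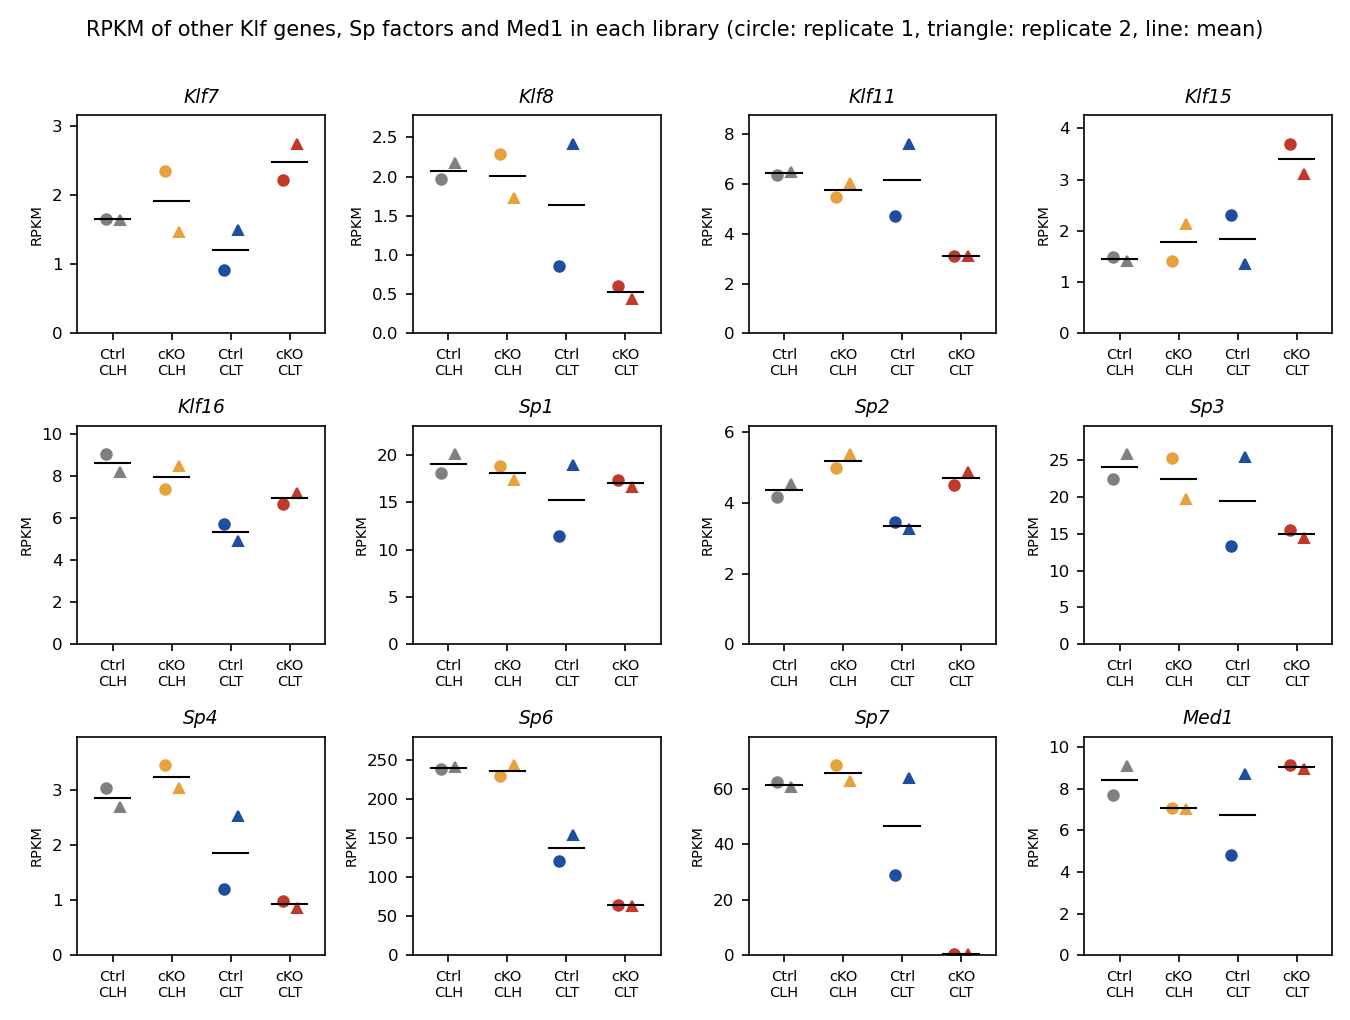
RPKM (y axis, linear, from 0) of the tested Klf genes outside the 8 members, the tested Sp factors and *Med1* in the 8 libraries by group (x axis); circles are replicate 1, triangles replicate 2 and lines the mean of 2 libraries. *Sp6* and *Sp7* are lowest in cKO CLT, and the means of *Klf7* and *Klf15* are highest there.

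Genes for proteins that act with Klf factors did not pass the threshold between cKO and Ctrl in CLT. Of all tested genes 1.75% passed, so counts of 0 in lists of 7 or 11 genes are near that share. Of 11 corepressor genes 0 passed the threshold (limma), 0 had an unadjusted p under 0.05 (36.2% of all tested genes), and the log2 fold changes ran from -0.50 (*Hdac2*) to 0.46 (*Sap30*, a subunit of the Sin3 complex). Of 7 coactivator genes 0 passed, 2 had an unadjusted p under 0.05, and the lowest log2 fold change was -0.02 (*Kat2b*), while all others were positive. Of 11 ubiquitin ligases and deubiquitinases that act on Klf proteins 0 passed and 4 had an unadjusted p under 0.05, with *Btrc* lowest (RPKM 4.70 and 6.94 in Ctrl CLT against 1.94 and 1.86 in cKO CLT) and *Fbxo32* highest (4.95 and 2.46 against 11.6 and 10.6). In the interaction, 4 of these 11 passed, against 17.6% of all tested genes: *Btrc* (-1.26) and *Vhl* (-1.06) were more negative in CLT than in CLH, and *Fbxo32* (1.73) and *Usp10* (0.55) more positive.

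Of 17 genes known to act upstream of Klf genes, 1 passed the threshold in CLT, against 1.75% of all tested genes. This was *Tgfbr2*, the TGF-beta type II receptor, with an RPKM of 37.7 and 38.9 (Ctrl CLT) and 15.0 and 14.7 (cKO CLT), a log2FC of -1.31 ± 0.13 SE (limma adjusted p = 0.046). In the same libraries its early target *Klf10* was higher (log2FC 0.28) but did not pass the threshold. A link between the 2 genes was not tested. *Egr1*, an immediate early factor, was at the other end of the list, with 12.9 and 5.26 (Ctrl CLT) and 33.7 and 31.9 (cKO CLT), a log2FC of 1.86 ± 0.43 SE (limma adjusted p = 0.082). The interaction passed for *Tgfbr2* (-1.31) and *Smad3* (-1.18), which were more negative in CLT, and for *Mef2d* (0.71) and *Egr1* (2.10), which were more positive. It passed for 17.6% of all tested genes. Of the 9 tested genes of the immediate early response, 9 were higher in both cKO CLT libraries (37.2% of all tested genes), 0 passed the threshold and 6 had an unadjusted p under 0.05 (36.2% of all tested genes). The summed RPKM of all 10 listed genes of this response, tested or not, was 66.1 to 105.1 in Ctrl CLT and 170.1 to 186.4 in cKO CLT. Over the CLH libraries it was 69.8 to 88.3. The part of this response in the Klf values was not tested.

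Markers of other cell types differed between the same libraries. The summed RPKM of 7 hair keratin and sheath genes was 3347 and 11.5 (Ctrl CLT 1 and 2), 9952 and 10957 (cKO CLT), and 5.75 to 7.61 in CLH. That of 13 cornified envelope genes was 744 and 26.4 (Ctrl CLT) and 2052 and 2267 (cKO CLT), and that of 7 skeletal muscle genes was 709 and 52.8 against 1929 and 2109. The cKO CLT libraries were highest in these lists, Ctrl CLT 1 was between, and Ctrl CLT 2 was far below. Melanocyte genes summed to 128 and 9.89 against 394 and 396, and fat cell genes to 251 and 7.29 against 684 and 630. Among these lists 0 genes passed the threshold in CLT, and *Sprr2a1* was at 0 in each library. The 7 basal epithelium genes summed to 1398 and 889 (Ctrl CLT) and 1769 and 1996 (cKO CLT), but they did not move one way. *Krt5*, *Krt14*, *Trp63*, *Epcam* and *Cdh1* were higher in both cKO CLT libraries. *Itga6* (30.3 and 43.1 in Ctrl CLT against 18.3 and 17.5 in cKO CLT) and *Itgb4* (34.8 and 21.6 against 12.8 and 15.0) were lower in both. In the opposite direction, the 7 ameloblast genes summed to 84584 and 37392 (Ctrl CLT) and 19.7 and 15.8 (cKO CLT), and 7 of 7 passed the threshold, with *Amelx* (log2 fold change -12.31) furthest and *Mmp20* (-6.54) least. The 6 odontoblast and bone genes, *Sp7* among them, summed to 2167 and 2533 against 378 and 472, and 4 passed. The endothelial genes summed to 102 and 145 against 88.9 and 88.9, leukocyte genes to 144 and 198 against 114 and 111, mesenchyme genes to 1505 and 1892 against 1664 and 1833, and erythroid genes to 9.88 and 6.24 against 11.7 and 12.8, with 0 genes past the threshold. The mesenchyme genes did not move one way either. *Col3a1* (527 and 456 in Ctrl CLT against 874 and 979 in cKO CLT) was higher in both cKO CLT libraries. *Vim* (266 and 508 against 128 and 132), *Pdgfra*, *Pdgfrb* and *Twist1* were lower in both, and *Col1a2* and *Prrx1* overlapped. The part of these tissues in the higher Klf values in cKO CLT was not tested. Between Ctrl CLT 1 and 2, *Klf3* (13.1 and 15.0) and *Klf6* (14.2 and 29.4) were higher in Ctrl CLT 2. The endothelial, leukocyte, mesenchyme, and odontoblast and bone sums were also higher in that library. *Klf2*, *Klf4*, *Klf5*, *Klf9*, *Klf10* and *Klf13* were higher in Ctrl CLT 1, as were the sums of the other lists.

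**Figure D5:**
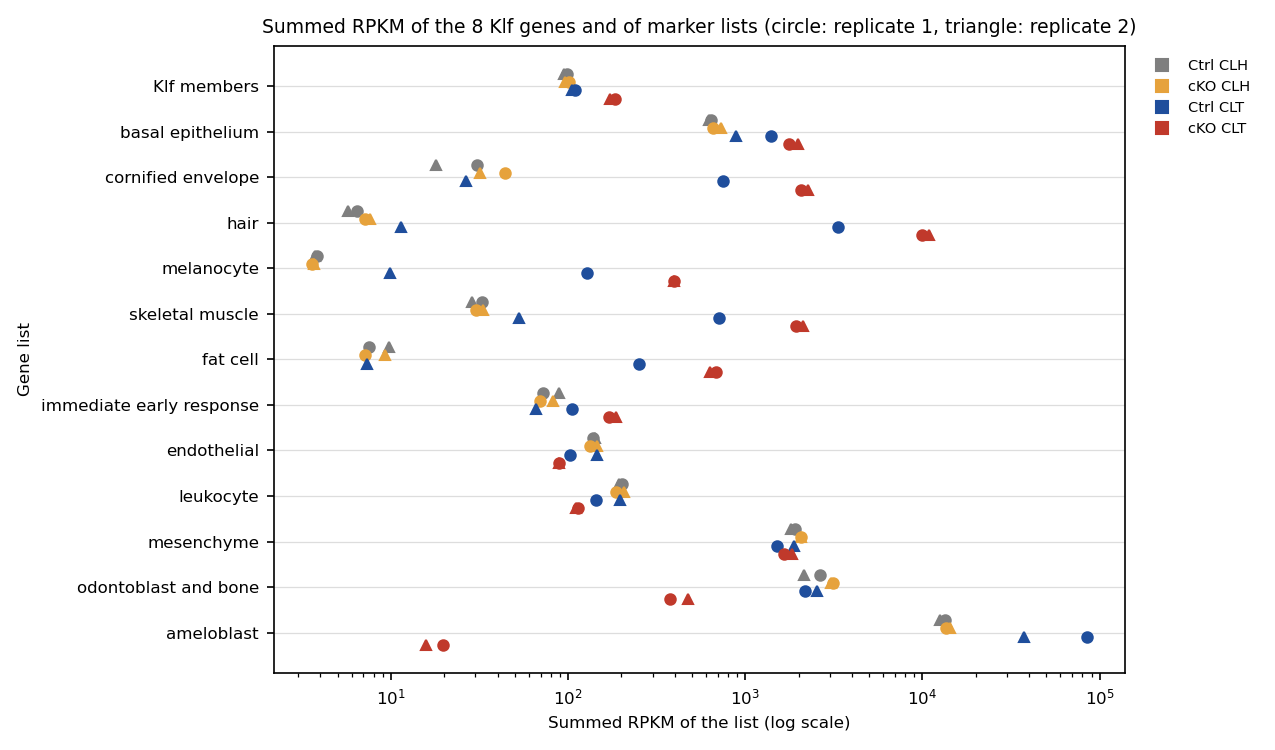
Summed RPKM (x axis, log scale) of the 8 Klf genes and of 12 gene lists (y axis) in each library; colors are groups, circles replicate 1 and triangles replicate 2. The Klf sum spans 95.0 to 183.0, whereas hair genes span 5.75 to 10957 and ameloblast genes 15.8 to 84584, with Ctrl CLT 1 between Ctrl CLT 2 and cKO CLT for hair, cornified envelope, melanocyte, skeletal muscle and fat cell genes.

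Over the 8 libraries the members fell into patterns, given here as Pearson's r on log2(RPKM + 1) and Spearman's rho with no test, since the points share libraries and groups. *Klf5* and *Klf13* had the highest r (0.987, rho 0.952), followed by *Klf9* and *Klf13* (r 0.982, rho 0.786) and *Klf5* and *Klf9* (r 0.946, rho 0.738), while the highest rho was that of *Klf9* and *Klf10* (0.976, r 0.910). The measures differed for *Klf3* and *Klf4* (r 0.887, rho 0.381) and for *Klf3* and *Klf6* (r 0.421, rho 0.690). *Klf2* had its most negative values with *Klf10* (r -0.73, rho -0.76). *Klf2* was highest in CLH and *Klf10* in CLT.

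Genes outside the lists with the pattern most like each member were named by the highest r over the same 8 libraries. For *Klf4* these were *Slc25a43* (r = 0.996) and *D930015E06Rik* (0.995), for *Klf3* *Cln8* (0.994), and for *Klf9* *Dsc3* (0.997), which encodes a desmosomal cadherin, and *Mpp7* (0.995). *Dsc3* RPKM ran from 25.5 to 29.7 in CLH, was 51.9 and 35.4 (Ctrl CLT) and was 113 and 103 (cKO CLT). For *Klf5* they were *Art1* (0.998) and *Cox8b* (0.997), and for *Klf13* *Lmod3* (0.999) and *Ctns* (0.999). *Art1*, *Cox8b* and *Lmod3* are genes of striated muscle, and *Lmod3* had at most 0.181 RPKM in CLH, 2.01 and 0.520 (Ctrl CLT) and 5.36 in both cKO CLT libraries. For *Klf10* they were *B3gnt2* (0.997) and *Trp53inp2* (0.993), for *Klf2* *Rnf187* (0.992) and *H2afx* (0.992), and for *Klf6* *Cldn25* (0.986) and *Capza1* (0.978). *H2afx*, a histone gene, was like *Klf2* lowest in Ctrl CLT 2, with 8.47 there against 25.2 to 30.5 in CLH. These names stand at the top of 14148 tested genes over 8 points.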

How the data were processed

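RNA-seq libraries of CLH and CLT tissue from *Med1* cKO and Ctrl mice were used, 2 in each of 4 groups, grouped by the sample labels. Per the submitters' processing notes and the methods, the authors checked reads with FastQC 0.72, trimmed them with Trim Galore 0.4.3.1, aligned them to mm10 with STAR 2.6.0b-1, counted them per gene with featureCounts 1.6.3 and tested with DESeq2 2.11.40.2. They deposited 1 table of RPKM values with a length per gene. The annotation, strand setting and RPKM total are not given in the sources used here. RPKM multiplied by length gave whole multiples of 1 step per library, within 0.1 read, for 100% of the lower values checked (11056 to 12627 per library). Higher values were not checked. The step gave the reads behind each value (22330512 to 28651106 per library, 82.2% to 85.6% of the total), with counting error alone covered by them. Of the gene names, 26 stood on 69 rows, and none of these was used. 0 columns of per-sample values were left out.

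Because the deposited values are RPKM, log2(RPKM + 1) was tested with limma 3.58.1 (R 4.3.3, eBayes with trend), within the 4 libraries of each comparison or over all 8 for the interaction, on 14148 genes that reached an RPKM of 1 in 2 or more libraries. P-values are two-sided, with Benjamini-Hochberg adjustment over all genes and a threshold of 0.05. With 2 libraries against 2, exact permutation p-values start at 0.333. The members and the lists were chosen with earlier results of these data known. Named were all members, the tested Klf and Sp genes, of each further list the genes past the threshold (at most 4) and its extremes, and the 2 genes most like each member, except for genes that are not reported here. Alternatives were pseudocounts of 0.1 and 0.5, other scalings and filters, all 8 libraries in 1 fit, a replicate block, eBayes without trend or robust, voom on the recovered reads, and each library left out in turn. With a library left out, the spread came from all remaining libraries. The scripts were tested on simulated data. Promoters are RefSeq sequences of GRCm38.p6. The ChIP-seq and microarray data were not analysed here.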

Additional observations from a re-analysis of the deposited data

Results flagged for a closer look

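The cKO effect differed between the regions for 2 of the 8 members, by the interaction over all 8 libraries, which 17.6% of all tested genes passed. That fit assumes 1 spread per gene for all 4 groups, although the Ctrl CLT libraries stood further apart than those of the other groups. For *Klf4* the effect was 1.10 on the log2 scale higher in CLT than in CLH (SE 0.23, adjusted p = 0.028, limma), and for *Klf3* it was 0.89 higher (SE 0.19, adjusted p = 0.032, limma). In CLT both cKO libraries lay above both Ctrl libraries for each gene, and in CLH the log2 fold changes were -0.03 for *Klf4* and 0.08 for *Klf3*. With the replicate number as a block the adjusted p (limma) was 0.0425 for *Klf4* and 0.0531 for *Klf3*, which then missed the threshold. Leaving out 1 library gave estimates of 0.85 to 1.34 for *Klf4* and 0.772 to 1.001 for *Klf3*, and in 6 of these 8 fits neither passed the threshold. The calls over all tested genes also moved widely between these fits, so the lost calls are not particular to *Klf3* and *Klf4*. Groups of 2 libraries are too small for a test of single outlying samples.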

How the results depend on the processing

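In CLT, 0 members passed the threshold between cKO and Ctrl, and 5 passed with all 8 libraries in 1 fit. The fits without 1 library likewise took the spread from all remaining libraries. Leaving out 1 library in turn gave 2 to 8 in CLT, 0 to 6 for the interaction (2 with all libraries) and 0 to 6 between the regions in Ctrl, where 1 passed with all 8 libraries in 1 fit. Between the regions in cKO 6 to 8 passed in each setting, and in CLH 0 passed in each. The replicate number as a block left *Klf4* alone of the 2 members in the interaction, so that 1 passed, gave 8 in place of 7 between the regions in cKO and changed no other count of members. No label ties a replicate number to a litter. Deviations of same-numbered libraries correlated by 0.195 between the regions in Ctrl and 0.307 in cKO, and by -0.192 between the genotypes in CLT and 0.0656 in CLH, so whether the numbers pair the samples is not settled. The crossed pairing in CLT, chosen after seeing the data, also gave 0 members.

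Over all tested genes, 11 passed higher and 237 lower in cKO than Ctrl in CLT, against 3352 and 2831 with all 8 libraries in 1 fit, 888 and 856 under the block, 0 and 3 without the filter, 0 and 9 under the crossed pairing and 0 in either direction with voom. Without 1 library, 598 to 4650 passed higher and 984 to 5566 lower. The interaction had 1139 higher and 1355 lower, 513 and 935 under the block, and 2 to 4028 and 196 to 4904 without 1 library. Between the regions in Ctrl 1 gene passed, against 346 higher and 491 lower with all 8 libraries in 1 fit, 5 under the block and up to 2849 higher and 5693 lower without 1 library. In cKO 4084 passed higher in CLT and 6384 lower, against 2010 to 2143 and 2466 to 2687 without 1 library. With median-of-ratios scaling this split was 5270 higher and 4884 lower. The fits without 1 library took the spread from all remaining libraries, so for comparisons within 1 region or genotype the source of the spread changed too.

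Signs changed in these cases. In CLT between cKO and Ctrl, *Klf6* ranged from -0.31 to 0.70 (log2) over the fits without 1 library, and in the interaction from -0.31 to 0.69. Without Ctrl CLT 1 its value passed the threshold in CLT (-0.31, limma adjusted p = 0.031) and between the regions in Ctrl (0.50, limma adjusted p = 0.013). In CLH the ranges were -0.090 to 0.15 for *Klf2*, -0.036 to 0.19 for *Klf3*, -0.087 to 0.10 for *Klf6*, -0.014 to 0.22 for *Klf10* and -0.026 to 0.047 for *Klf13*. Between the regions in Ctrl they were -0.048 to 0.18 for *Klf3*, -0.43 to 0.055 for *Klf4* and -0.51 to 0.50 for *Klf6*. Under quantile normalization *Klf6* was -0.0041 and *Klf13* -0.0036 in CLH, and *Klf6* was 0.067 between the regions in Ctrl. With voom *Klf6* was -0.0084 and *Klf13* -0.0062 in CLH, and with median-of-ratios scaling *Klf6* was 0.16 between the regions in Ctrl. The cause was not tested. Over all member values and settings, 553 kept direction and side of the threshold, 41 passed it, 18 lost it and 20 changed sign. The 2 libraries per group limit every comparison.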
